A study of Rattus norvegicus with 30 samples.

Results

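Keratin genes and a squamous secreted protein gene, Slurp1, were followed in the lungs of rats with severe acute pancreatitis. The set held 10 of the 22914 genes in the count table, chosen by symbol: Krt7, Krt8, Krt18, Krt14, Krt19, Krt5, Krt15, Krt17, Krt81 and Slurp1. All 10 had enough reads to be tested. RNA-seq of polyadenylated RNA was available from 30 lungs, 3 in each of 10 groups, and each library was from 1 rat.

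All animals were male Sprague Dawley rats aged 8 weeks, killed 6 or 24 h after the operation. In Sham rats the pancreas was only turned over. Con rats received saline in the biliopancreatic duct. SAP rats received 5.0% sodium taurocholate there, at 0.1 mL per 100 g, which induces severe acute pancreatitis. DEX rats received taurocholate and then dexamethasone, a glucocorticoid, at 10 mg/kg into a vein, and Emo rats received taurocholate and then emodin, a plant anthraquinone, into the stomach. The labels give the emodin dose as 10 mg/kg in 1 field and 40 mg/kg in another, and the study's methods state 40 mg/kg. Drugs were given at 2 and 12 h, so that the 6 h rats had only the first dose, and the groups without a drug received the vehicles. The lungs were whole tissue perfused with saline, so fewer cells of a type and less RNA per cell cannot be told apart.

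Keratins form the intermediate filaments of epithelial cells, each filament built from pairs of a type I and a type II chain. Krt8 and Krt18 are the pair of simple epithelia, Krt7 and Krt19 are found in simple and ductal epithelia, and Krt5 and Krt14 pair in the basal cells of stratified and airway epithelia. Krt15 and Krt17 are also known from basal cells, Krt17 from injured epithelium, and Krt81 from the hair shaft. In injured alveoli, type 2 cells on their way to becoming type 1 cells are known to raise Krt8, and basal-like cells with Krt5 can appear after severe damage.

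Each library held between 16813949 and 34692306 reads on genes. In the sequencing summary that accompanies the study, the share of unique reads was lower in every library from a rat given taurocholate than in every Con or Sham library, so that this sign of library quality and the taurocholate effect cannot be told apart. At 24 h it was higher in every DEX and Emo library than in every SAP library. In both drug groups it was also higher in every 24 h library than in every 6 h library of that drug. Its part in the drug and time comparisons was not tested. Neutrophil RNA was present in every group: the sum of 6 markers ran from 4423 to 16278 FPKM (fragments per kilobase of transcript, scaled to library size) in SAP-24h lungs from 193 to 9233 in Sham-24h lungs and from 95.1 to 949 in Con-24h lungs. Heart muscle markers also varied between libraries, with a summed level between 6.57 and 233 FPKM. The set was proposed from SAP-24h against Sham-24h, and Slurp1 and Krt81 were put in it for their rise there. Every value of that contrast and of its change over time is therefore given as a description with no test. The same holds for every comparison of Slurp1 or Krt81 that contains either group. The other members were tested in such comparisons, but were chosen with earlier results of these data known. Those tests are thus not independent of the choice. Elsewhere a gene was called when edgeR's quasi-likelihood test gave an adjusted p under 0.05 and the change was at least 2-fold.

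**Figure D1:**
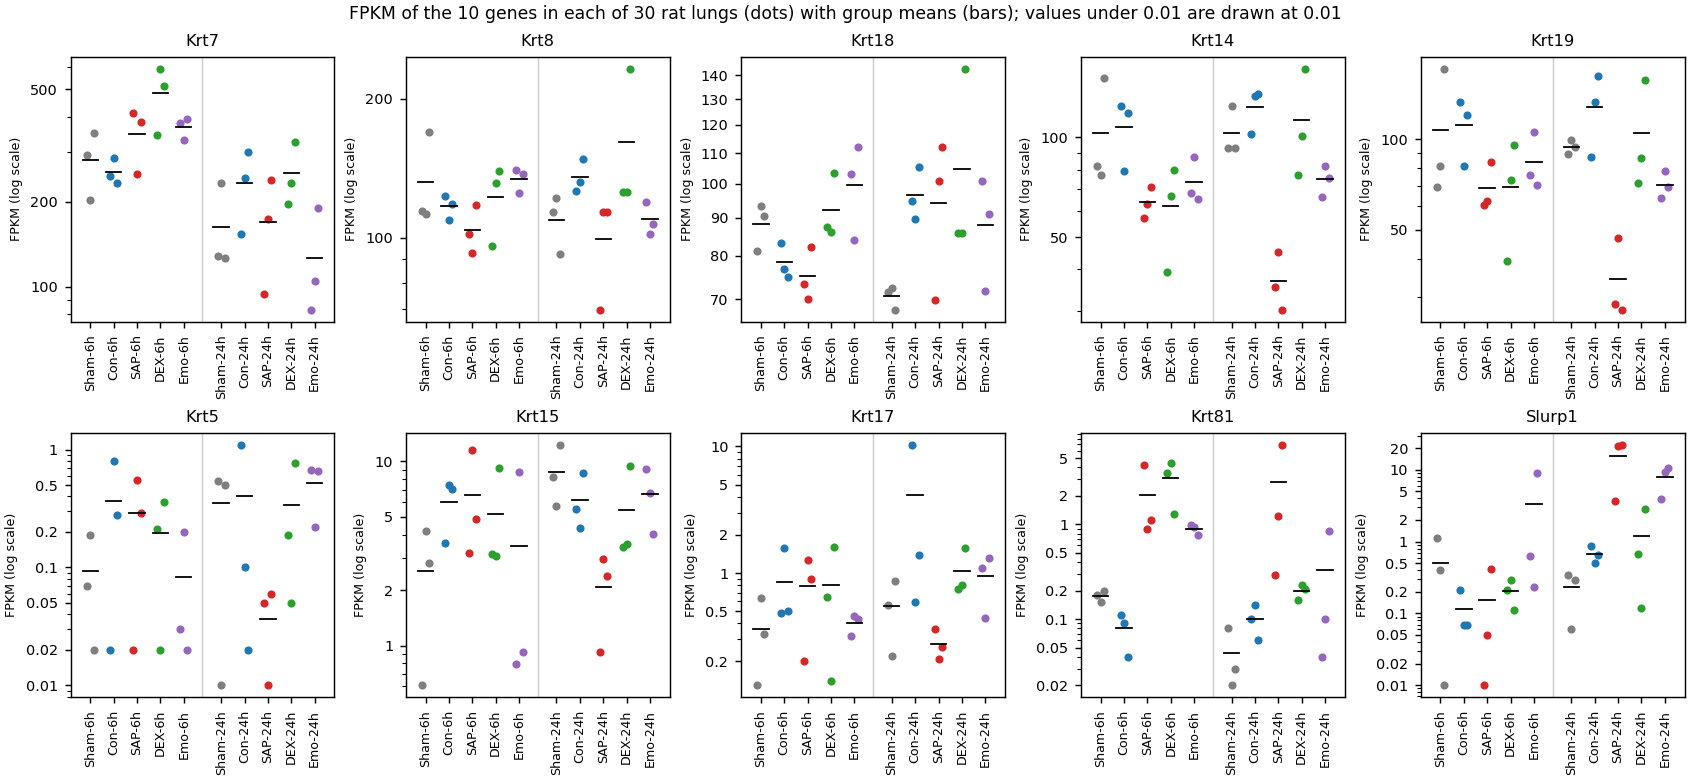
FPKM (log axis) of each of the 10 genes in the 3 rats of each group (dots), with group means as bars; values under 0.01 are drawn at 0.01. Krt14 and Krt19 were lowest in SAP-24h, with means of 36.9 and 34.3 FPKM. Slurp1 was highest in SAP-24h, with a mean of 15.8 FPKM. At 6 h Krt81 had means of 2.06 FPKM in SAP, 3.08 in DEX and 0.9 in Emo, against 0.177 in Sham and 0.08 in Con.

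Per transcript length, 5 genes carried nearly all of the signal within the set. Krt7, Krt8, Krt18, Krt14 and Krt19 held 98.8% ± 0.74 (SD, n = 30) of the summed FPKM of the 9 member keratins. Krt7 had a median of 245 FPKM over the 30 lungs and ranked 272 among all genes by mean FPKM. Krt8 had a median of 119 FPKM, Krt18 86.0, Krt19 81.3 and Krt14 79.6. Krt15 followed at 4.25 FPKM, and Krt17, Slurp1, Krt81 and Krt5 had medians of 0.575, 0.405, 0.205 and 0.19. The levels thus fell into an abundant group of simple keratins plus Krt14 and a sparse group with at most 22.4 FPKM in any lung. Outside the set, Krt80 (9.49 to 83.9 FPKM over the 30 lungs, median 28.4), Krt79 (2.76 to 43.2, median 25.0) and Krt23 (5.07 to 17.1, median 7.18) were the most abundant keratins by median and were named after their values were seen, with medians between those of the abundant and the sparse members. When the 10 groups were ordered by mean level, neighbouring groups overlapped in all 9 steps for Krt7, Krt8, Krt18, Krt5, Krt15, Krt17 and Slurp1, and in 8 of 9 steps for Krt14, Krt19 and Krt81.

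Krt8 and Krt18, the simple epithelial pair, lie next to each other on chromosome 7 with 0 protein-coding genes between them in the RefSeq order. Of the 10 genes, 3 were in the RefSeq promoter table (assembly GRCr8). The 250 bases before the start sites of this pair are shown because the genes sit side by side and their levels moved together. The Krt8 stretch is chr7:135010340-135010589 on the minus strand, and the Krt18 stretch is chr7:135035918-135036167 on the plus strand. Capitals mark matches to TATAAA and GGGCGG, each searched on both strands.
Krt8: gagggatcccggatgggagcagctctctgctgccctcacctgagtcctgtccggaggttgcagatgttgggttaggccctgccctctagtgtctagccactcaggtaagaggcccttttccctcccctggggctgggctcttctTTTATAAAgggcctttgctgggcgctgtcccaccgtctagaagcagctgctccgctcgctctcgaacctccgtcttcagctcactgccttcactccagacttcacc
Krt18: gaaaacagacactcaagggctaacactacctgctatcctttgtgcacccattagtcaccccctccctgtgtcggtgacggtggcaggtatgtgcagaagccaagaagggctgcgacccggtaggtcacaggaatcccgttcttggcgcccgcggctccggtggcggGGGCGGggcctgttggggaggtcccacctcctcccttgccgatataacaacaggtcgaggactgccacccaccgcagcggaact
Krt8 held 2 overlapping matches to TATAAA, from -106 to -101 and from -104 to -99 bases before the start site, and Krt18 held a match to GGGCGG from -84 to -79. TATAAA was present in 12.9% and GGGCGG in 30.5% of the 33469 promoters of this length. Neither sequence held TGANTCA, the AP-1 motif, which 6.34% of promoters held. These matches are descriptions of the letters only.

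Group means of Krt8 lay between 99.2 and 161 FPKM. At 24 h it measured 114, 122 and 92.2 FPKM in Sham lungs and 126, 132 and 148 in Con lungs. SAP-24h lungs had 69.9, 114 and 114 FPKM, DEX-24h lungs 126, 126 and 232, and Emo-24h lungs 119.8, 102 and 107. All 3 DEX-24h lungs were above all 3 SAP-24h lungs, by 0.62 ± 0.21 on the log2 scale (SE), with an adjusted p of 0.0715 by edgeR. Emo-24h was below DEX-24h by a log2 difference of -0.62 ± 0.21 (SE, edgeR adjusted p = 0.0669). Krt8 was therefore not called in any of the comparisons tested.

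Krt18, the type I partner, was not called either. It measured 71.5, 72.5 and 67.8 FPKM in Sham-24h lungs and 69.7, 101 and 112 in SAP-24h lungs, where replicate 1 lay inside the Sham range. Con-24h lungs had 94.8, 89.6 and 105 FPKM, which overlapped SAP-24h and DEX-24h and lay above Sham-24h, the lowest of the 10 group means. DEX-24h lungs had 85.9, 85.8 and 143 FPKM, all above Sham-24h. The difference of DEX-24h from Sham-24h was 0.60 ± 0.17 on the log2 scale (SE, edgeR adjusted p = 0.0302), below 2-fold, and it was not called.

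The ratio of Krt8 to Krt18 in FPKM was 1.38 ± 0.20 over all libraries (SD, n = 30), and 1.05 ± 0.069 in SAP-24h (SD, n = 3), where it ran from 1.00 to 1.13. Con-24h lungs ran from 1.33 to 1.47, Sham-24h lungs from 1.36 to 1.69 and DEX-24h lungs from 1.46 to 1.63, all above the SAP-24h values. Emo-24h lungs ran from 1.18 to 1.42. Only DEX-6h, from 1.10 to 1.53, overlapped the SAP-24h range. The ratio was computed after these values were known and was not tested. Across the 30 libraries, log2 levels of Krt8 and Krt18 had a Pearson r of 0.718, and 0.791 after the group means were removed. Krt8 was in turn the gene most like Krt18 among 15154 genes compared, while Krt8 itself was closest to Myo1c (r = 0.798), Atxn10 (0.792) and Cldn18 (0.776), a tight-junction protein of the alveolar epithelium.

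Krt7, a type II chain of glandular and alveolar epithelia, was called lower at 24 h than at 6 h in Emo alone. At 6 h its level was 294, 203 and 349 FPKM in Sham, 247, 285 and 233 in Con and 411, 251 and 382 in SAP lungs. DEX-6h lungs had 346, 589.7 and 516 FPKM and Emo-6h lungs 381, 330.4 and 394. At 24 h it was 128, 232 and 127 FPKM in Sham, 153, 243 and 300.3 in Con, and 94.3, 173 and 239 in SAP lungs. DEX-24h lungs had 197, 233 and 326 FPKM and Emo-24h lungs 83.0, 105 and 190.0. In DEX, Emo and SAP every 24 h lung was below every 6 h lung of the same treatment, while in Con and Sham the times overlapped. The share of all tested genes that separated between times is not given here. This pattern does not show that the change differed between treatments. Between SAP and Con it differed by -0.88 ± 0.49 on the log2 scale (SE, adjusted p = 0.455, edgeR), without a call.

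Krt7 was called in 1 of these time comparisons. It fell by 1.58 on the log2 scale from Emo-6h to Emo-24h (SE 0.35, edgeR adjusted p = 0.00167), the only member called there, where 9.41% of all tested genes were called. The alveolar type 1 marker sum was between 2593 and 2937 FPKM in Emo-6h lungs and between 1676 and 2499 in Emo-24h lungs. Over its 6 markers the median log2 change between these times was 0.062, and 0 were called. The sum of 6 mesothelial markers was between 57.9 and 80.1 FPKM in Emo-6h and between 29.1 and 44.5 in Emo-24h lungs, and neither sum overlapped between the times. The mesothelial markers went both ways, with a median log2 change of -0.79. Msln was called lower, at -1.22 ± 0.39 (SE, adjusted p = 0.0183), and Gpm6a higher, at 1.54 ± 0.48 (adjusted p = 0.0171), by edgeR. Over the 30 libraries the r of the type 1 and mesothelial sums with Krt7 was 0.524 and 0.433, and their part in its fall was not tested. The change was -0.97 ± 0.35 in SAP (SE, adjusted p = 0.0894, edgeR), -0.93 ± 0.35 in DEX (adjusted p = 0.0512, edgeR), -0.77 ± 0.35 in Sham (adjusted p = 0.206, edgeR) and -0.09 ± 0.34 in Con (adjusted p = 0.961, edgeR). In DEX it passed the call rule without DEX-24h replicate 3, at -1.14, and without DEX-6h replicate 1, at -1.12. Between the drugs at 24 h, Emo was lower than DEX in all 3 lungs, at -1.05 ± 0.35 on the log2 scale (SE, adjusted p = 0.0607, edgeR), where 5.06% of tested genes and 0 members were called. Without Emo-24h replicate 3 that difference was -1.57 (adjusted p = 0.00863, edgeR), and with the replicate number as a block it was -1.08 (adjusted p = 0.036, edgeR), both past the call rule. The genes closest to Krt7 were Por (r = 0.910), the electron donor of microsomal P450 enzymes, Ncdn (0.901) and Kcnip3 (0.901). The ratio of Krt7 to Krt8 was 3.93 ± 0.48 in DEX-6h (SD, n = 3) and 1.16 ± 0.55 in Emo-24h, the highest and the lowest of the 10 group means.

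Krt14 and Krt19 fell in SAP-24h and were higher in DEX-24h. Krt14 measured 102, 133 and 135 FPKM in Con-24h lungs, and Krt19 measured 87.3, 133 and 162. In SAP-24h lungs Krt14 dropped to 35.4, 45.0 and 30.2 FPKM and Krt19 to 28.4, 47.2 and 27.2, so that the groups did not overlap. Krt14 fell by 1.62 (SE 0.29, adjusted p = 0.000871) and Krt19 fell by 1.77 (SE 0.35, adjusted p = 0.00165) on the log2 scale in edgeR. Leaving out each library in turn gave values from -1.76 to -1.47 and from -2.04 to -1.57.

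Of the 8 members tested in SAP-24h against Con-24h, 3 were called lower (Krt14, Krt19 and Krt17) and 0 higher, where 6.91% of all tested genes were called, 3.26% lower and 3.65% higher. The median log2 change was -0.90 over these 8 members and -0.0085 over all genes. Every SAP-24h lung was below every Con-24h lung for 5 of these 8 (Krt8, Krt14, Krt19, Krt15 and Krt17), where 22.3% of tested genes separated in that direction. Separation was read from the deposited FPKM, while the log2 changes came from counts with TMM scaling. A narrow separation, such as that of Krt8 at 114 against 126 FPKM, can depend on the scaling. Against Sham-24h the differences of Krt14 and Krt19 were -1.36 and -1.34 on the log2 scale, given as descriptions. Sham-24h lungs had 93.0, 124 and 92.7 FPKM of Krt14 and 89.1, 99.2 and 94.6 of Krt19, again without overlap with SAP-24h. In that contrast 3 members separated downwards (Krt14, Krt19 and Krt15) and 2 upwards, where 21.8% and 7.58% of genes did, and nothing is read from it.

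**Figure D2:**
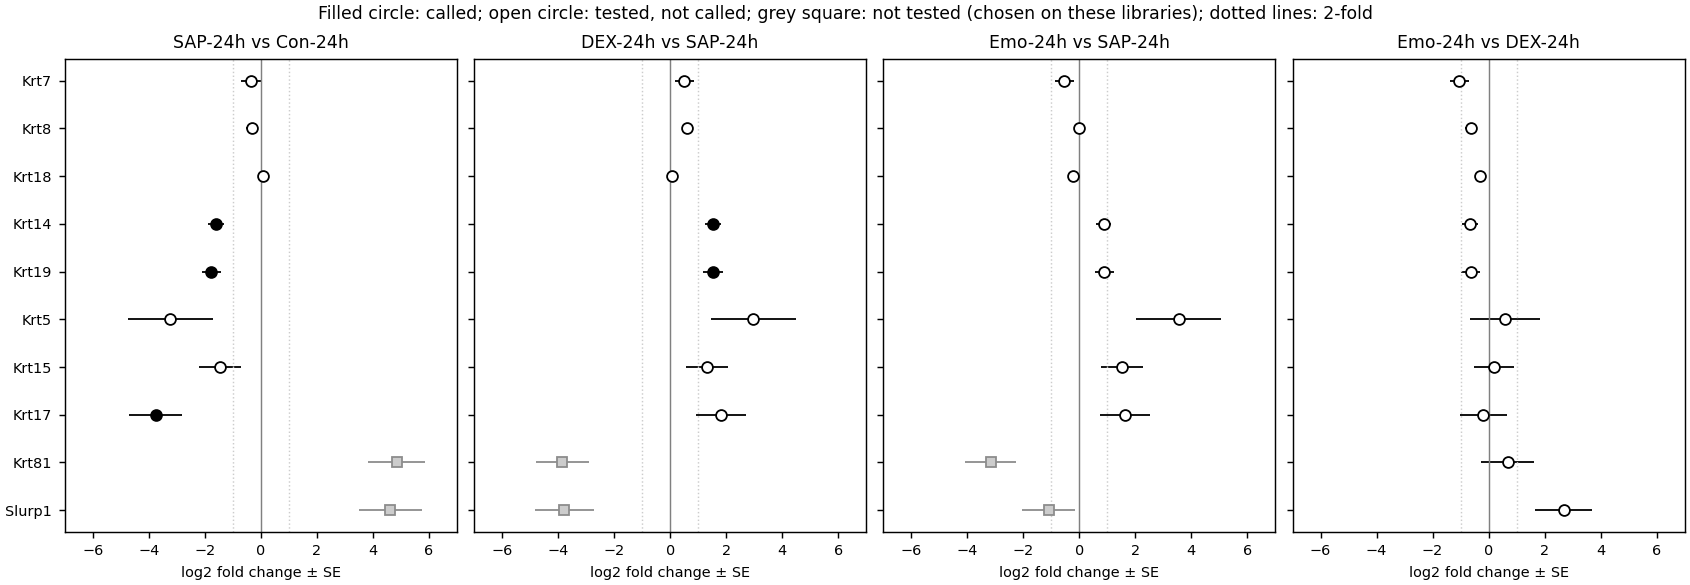
Log2 fold changes ± SE (x axis) of the 10 genes in 4 comparisons at 24 h, from 3 rats against 3; filled circles were called, open circles were tested and not called, and grey squares were not tested. Krt14 and Krt19 stood at -1.62 and -1.77 in SAP-24h vs Con-24h and at 1.52 and 1.53 in DEX-24h vs SAP-24h.

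After dexamethasone, the DEX-24h lungs held 76.8, 101 and 161 FPKM of Krt14 and 71.6, 86.7 and 157 of Krt19. All 3 were above all 3 SAP-24h lungs for both genes. Krt14 was higher by 1.52 ± 0.29 (SE, adjusted p = 0.00239) and Krt19 by 1.53 ± 0.35 (adjusted p = 0.00949) on the log2 scale by edgeR. These were the 2 members called of 8 tested, both higher, where 3.73% of tested genes were called and 1.18% were called higher. Without DEX-24h replicate 3, the highest lung, Krt19 was at 1.13 (adjusted p = 0.0713, edgeR) and no longer called, and Krt14 stayed called. When only these 6 libraries were fitted, the folds were both 1.53 and neither was called, at an adjusted p of 0.0541 for Krt14 and 0.0782 for Krt19 by edgeR. Every DEX-24h lung was above every SAP-24h lung for 5 members, Krt8, Krt14, Krt19, Krt15 and Krt17, where 16.4% of tested genes separated in that direction.

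With emodin neither gene was called. Emo-24h lungs held 66.3, 82.1 and 75.6 FPKM of Krt14 and 63.8, 78.3 and 69.5 of Krt19. Each of these was above all SAP-24h lungs, by 0.86 ± 0.28 (SE, adjusted p = 0.0572) for Krt14 and 0.89 ± 0.34 (adjusted p = 0.101) for Krt19 on the log2 scale in edgeR. Against DEX-24h the lungs overlapped for both genes, at -0.66 ± 0.28 (SE, adjusted p = 0.162) and -0.64 ± 0.34 (adjusted p = 0.299) by edgeR. No member was called in Emo-24h against SAP-24h, where 3.19% of tested genes were. By unadjusted p and the same fold rule 1 member passed in edgeR, beside 7.42% of tested genes, and 0 were called by DESeq2. Every Emo-24h lung was above every SAP-24h lung for 5 members (Krt14, Krt19, Krt5, Krt15 and Krt17), beside 23% of tested genes. The comparisons of SAP-24h with Con, DEX and Emo share the 3 SAP-24h libraries. The set was proposed with these libraries in view, so the comparisons are not independent of its choice.

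At 6 h Krt14 passed no test. Its level was 82.0, 77.2 and 151 FPKM in Sham-6h, 124, 79.2 and 118 in Con-6h, and 57.0, 63.1 and 71.0 in SAP-6h lungs. DEX-6h lungs held 39.2, 66.6 and 80.0 FPKM and Emo-6h lungs 68.2, 87.2 and 65.2. All SAP-6h lungs lay below all Sham-6h and Con-6h lungs, without a call. From DEX-6h to DEX-24h it was higher by 0.89 ± 0.28 on the log2 scale (SE, adjusted p = 0.0236, edgeR), below 2-fold and with overlapping lungs. Without DEX-24h replicate 1 it reached 1.12 and without DEX-6h replicate 3 it reached 1.07, past the call rule in both.

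Krt14 and Krt19, both type I chains, stood at nearly the same level as each other within each of the 30 lungs, though both levels differed between lungs. Their FPKM ratio was 1.00 ± 0.12 (SD, n = 30), with a range from 0.825 to 1.25. The Pearson r of their log2 levels was 0.962, and 0.950 after the group means were removed, over libraries that share depth and tissue composition. Each was the gene most like the other among 15154 compared. Ehd2, a membrane-shaping protein of caveolae, came next for both, at r = 0.841 for Krt14 and 0.884 for Krt19, followed by Tmbim1 (0.836) for Krt14 and Anxa5 (0.806) for Krt19. On chromosome 10, 1 protein-coding gene lies between them in the RefSeq order. Reads that matched several places had been discarded, and the part of this in the levels of Krt14 and Krt19 was not tested.

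**Figure D3:**
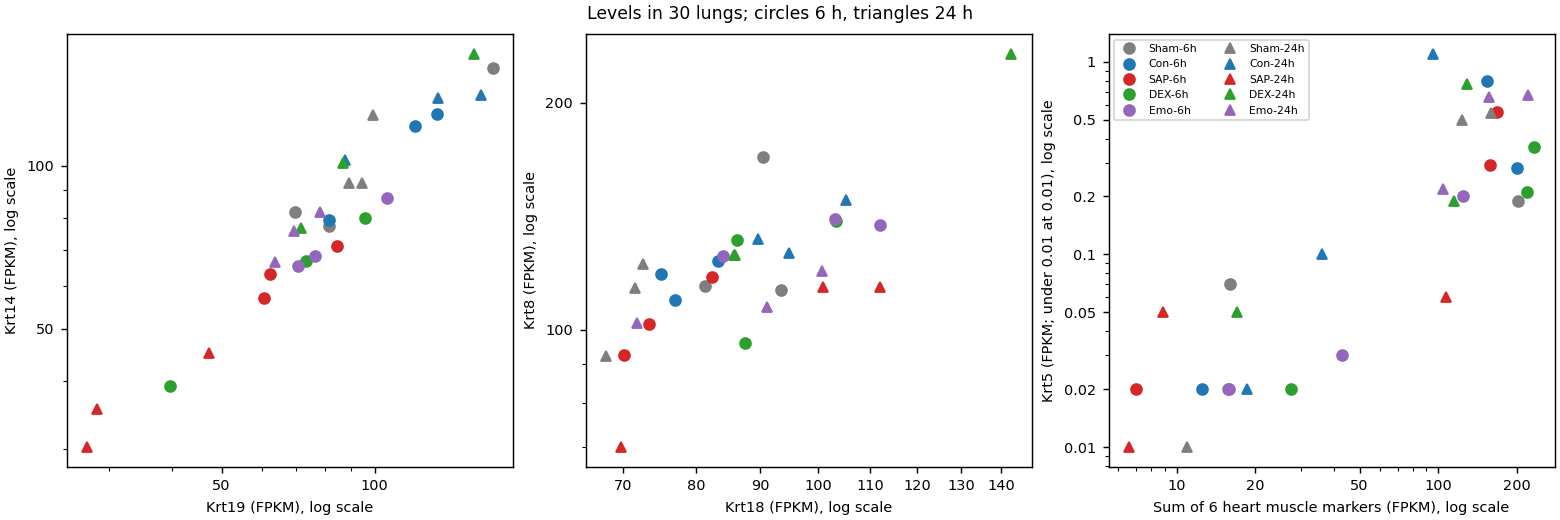
FPKM in 30 lungs on log axes: Krt14 against Krt19, Krt8 against Krt18, and Krt5 against the sum of 6 heart muscle markers (circles 6 h, triangles 24 h, colours by treatment). Krt14 and Krt19 lie along a line (r = 0.962), Krt8 and Krt18 scatter more (r = 0.718), and Krt5 rises with the heart muscle sum (r = 0.814 on the log2(FPKM + 0.1) scale).

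Markers of several cell types varied beside this pair. For alveolar type 1 cells, the thin gas-exchange cells, the sum of 6 type 1 markers ran from 1267 to 2545 FPKM in SAP-24h lungs and from 2640 to 3542 in Con-24h lungs, without overlap. It overlapped the SAP-24h range in the other groups of that time, from 2482 to 3250 in Sham-24h, from 2309 to 2920 in DEX-24h and from 1676 to 2499 in Emo-24h lungs. Across the 30 libraries its log2 level had r = 0.670 with Krt14 and 0.717 with Krt19. Of the 6 markers only Aqp5, the water channel of these cells, was called in SAP-24h against Con-24h, at -1.85 ± 0.50 on the log2 scale (SE, adjusted p = 0.0114, edgeR), and 0 were called in DEX-24h or Emo-24h against SAP-24h. The sum of the 7 matched of 8 ciliated cell markers had r = 0.597 with Krt14 and 0.618 with Krt19. It ran from 292 to 561 FPKM in SAP-24h lungs, below the 792 to 850 of Con-24h and the 601 to 714 of Sham-24h lungs without overlap, and overlapped the 505 to 593 of DEX-24h and the 514 to 633.5 of Emo-24h lungs. None of the 7 was called in SAP-24h against Con-24h or in either drug comparison. Their median log2 change in SAP-24h against Con-24h was 0.052, so the fall of the sum was not shared by most of them. The most abundant was Tppp3, at a median of 530 FPKM over the 30 libraries, against 21.5 for Rsph1, the next. The neutrophil sum had r = -0.703 with Krt14 and -0.688 with Krt19. All 6 neutrophil markers were called higher in SAP-24h than in Con-24h. Their sum was 4423 to 16278 FPKM in SAP-24h lungs, above the 1010 to 2966 of DEX-24h lungs without overlap, and overlapped the 4256 to 6583 of Emo-24h lungs, while 0 of the 6 were called by edgeR in either drug comparison. The sums of alveolar type 2, club, mesothelial, squamous and heart muscle markers had r from -0.308 to 0.417 with the pair, and the 6 basal markers besides Krt14 had 0.441 with Krt14. The part of any of these cell types in the fall of Krt14 and Krt19 was not tested.

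Krt5, the usual partner of Krt14, was close to absent. It ranged from 0 to 97 reads per library, with 0 reads in 1 SAP-24h lung, and from 0 to 1.1 FPKM, while Krt14 never went below 30.2 FPKM. The basal markers were uneven. Medians were 0.07 FPKM for Tp63, the basal cell transcription factor, 0.095 for Dlk2 and 0.265 for Ngfr, the nerve growth factor receptor, against 4.335 for Itgb4, an integrin of hemidesmosomes, 4.25 for Krt15 and 79.6 for Krt14. Krt5 measured 1.1, 0.1 and 0.02 FPKM in Con-24h lungs and 0.05, 0 and 0.06 in SAP-24h lungs, a log2 change of -3.24 ± 1.52 (SE, adjusted p = 0.130, edgeR). Emo-24h lungs held 0.67, 0.22 and 0.66 FPKM, above all SAP-24h lungs, at 3.55 ± 1.52 (SE, adjusted p = 0.139, edgeR), and their heart muscle marker sum was 104 to 219 FPKM against 6.57 to 107 in SAP-24h. It was not called in any comparison.

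Krt5 also differed widely between lungs of 1 group. Within Con-6h it ran from 0.02 to 0.8 FPKM and within Sham-24h from 0.01 to 0.54. Its level followed heart muscle markers across the 30 libraries, with r = 0.814 for the sum of Myh6, Actc1, Tnnt2, Tnni3, Myl7 and Nppa. The 3 genes most like it were Tmprss11a (r = 0.919), a serine protease of squamous epithelia, Sln (0.886), the sarcolipin of atrial muscle, and Nrap (0.872), a protein of striated muscle. Ciliated cell markers had r = 0.227 with it. The part of tissue taken along with the lung in the Krt5 level was not tested.

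Krt15 and Krt17 were sparse and uneven. Across the 30 libraries the heart muscle marker sum had r = 0.556 with Krt15 and 0.521 with Krt17, and the ciliated sum had 0.548 and 0.333. The heart muscle sum was between 104 and 219 FPKM in Emo-24h lungs, between 17.03 and 129 in DEX-24h lungs and between 18.5 and 95.3 in Con-24h lungs. In SAP-24h it ran from 6.57 to 107 with a median of 8.89, and its part in the levels of these genes was not tested. Krt15 measured 5.51, 4.34 and 8.68 FPKM in Con-24h lungs, 0.92, 2.94 and 2.39 in SAP-24h, 3.42, 3.54 and 9.41 in DEX-24h, and 9.09, 6.70 and 4.03 in Emo-24h. SAP-24h was below each of the other 3 groups without overlap. The log2 differences were -1.46 ± 0.75 against Con (SE, adjusted p = 0.166), 1.31 ± 0.74 for DEX against SAP (adjusted p = 0.299) and 1.51 ± 0.74 for Emo against SAP (adjusted p = 0.197) in edgeR. None was called.

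Krt17 was high in 1 Con-24h lung. Con-24h lungs held 10.3, 0.59 and 1.40 FPKM, with 595 reads in replicate 1, and SAP-24h lungs held 0.36, 0.21 and 0.26. The log2 change was -3.76 ± 0.94 (SE, adjusted p = 0.00676, edgeR). Without Con-24h replicate 1 it was -1.70 (adjusted p = 0.163, edgeR), and the call was lost. It was also lost when the 6 libraries were fitted alone (adjusted p = 0.0967, edgeR). Sham-24h lungs, at 0.56, 0.22 and 0.87 FPKM, were called lower than Con-24h as the only member, beside 1% of tested genes called, at -2.91 (adjusted p = 0.0396, edgeR). That call was lost in 5 of 6 fits without a library, at -0.85 without Con-24h replicate 1, -3.45 without Con-24h replicate 2, and -2.93, -2.54 and -3.46 without Sham-24h replicates 1, 2 and 3, and in the fit of the 6 libraries alone (adjusted p = 0.153, edgeR). Krt17 and Krt5 had r = 0.723 across the libraries, and Krt17 was closest to Cldn4 (r = 0.736), a claudin of tight junctions.

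Krt81, a type II hair keratin, was higher in the lungs of rats given taurocholate at 6 h. It measured 0.18, 0.15 and 0.20 FPKM in Sham-6h lungs and 0.11, 0.09 and 0.04 in Con-6h lungs. SAP-6h lungs held 4.19, 0.90 and 1.10 FPKM, DEX-6h lungs 3.51, 4.45 and 1.28, and Emo-6h lungs 0.98, 0.94 and 0.78. All 9 lungs given taurocholate were above all 6 Sham-6h and Con-6h lungs. The share of all tested genes that separated in this way is not given here, so nothing is read from the separation itself. Only DEX-6h against Sham-6h was called, at 4.19 ± 0.97 on the log2 scale (SE, adjusted p = 0.00866, edgeR). It was the only member of 10 called there, beside 3.97% of tested genes.

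In SAP-6h and Emo-6h the difference did not pass the test. Krt81 was higher by 3.63 ± 0.96 than in Sham-6h (SE, adjusted p = 0.106, edgeR) and by 4.71 ± 1.05 than in Con-6h (adjusted p = 0.0600, edgeR), where 0.22% and 0.163% of tested genes were called. DESeq2 called both, at adjusted p of 0.00775 and 0.000228, and edgeR called the latter without SAP-6h replicate 2, at 5.09 (adjusted p = 0.0487). In Emo-6h it was 2.38 ± 0.94 above Sham-6h (SE, adjusted p = 0.134, edgeR), where 0.477% of tested genes were called. Between the treatments, DEX-6h and SAP-6h overlapped, with 0.515% of tested genes and 0 members called, and every Emo-6h lung was below every DEX-6h lung, at -1.80 ± 0.84 (SE, adjusted p = 0.265, edgeR), where 1.41% of tested genes were called.

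At 24 h, of the 3 groups given taurocholate, only DEX and SAP did not overlap. Krt81 measured 0.16, 0.23 and 0.21 FPKM in DEX-24h lungs, against 0.29, 1.22 and 6.95 in SAP-24h and 0.04, 0.10 and 0.85 in Emo-24h lungs. The Emo-24h lungs overlapped both other groups (adjusted p = 0.767 against DEX-24h, edgeR). It fell by 3.95 on the log2 scale from DEX-6h to DEX-24h (SE 0.94, adjusted p = 0.00440, edgeR), the only member called there, beside 7.14% of tested genes. From Emo-6h to Emo-24h the difference was -1.46 (adjusted p = 0.206, edgeR), and -3.78 without Emo-24h replicate 3 (adjusted p = 0.0118, edgeR), which passes the call rule. The SAP-24h lungs spread most, and the difference from Sham-24h, 6.05 on the log2 scale as a description, ran from 4.20 to 6.81 when a library was left out. The descriptions against Con-24h and for DEX and Emo against SAP-24h were 4.84, -3.85 and -3.17, and the last of these was -5.50 without Emo-24h replicate 3.

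The genes closest to Krt81 were Wnt4 (r = 0.891), a Wnt ligand, Smox (0.891), which oxidises spermine, and Kb23 (0.869), annotated as type II keratin 23. Krt86, its neighbour in the RefSeq order and also a hair keratin, had 7 to 28 reads in SAP-6h, 11 to 39 in DEX-6h and 11 to 12 in Emo-6h lungs, against 0 to 5 in Sham-6h and 0 to 1 in Con-6h. At 24 h Krt86 had 3 to 15 reads in SAP lungs, 0 to 4 in DEX, 0 to 5 in Emo, and 0 in all 3 Con lungs. Kb23, named after its values were seen, had means of 2.81 ± 0.64 FPKM in DEX-6h, 1.05 ± 0.66 in SAP-6h and 0.74 ± 0.31 in Emo-6h (SD, n = 3), against 0.347 ± 0.27 in Sham-6h and 0.21 ± 0.10 in Con-6h, and its Emo-6h and Sham-6h lungs overlapped. Krt83, a further hair keratin, had at most 5 reads in any lung. Reads that matched several places had been discarded, and hair keratins are alike in sequence, so that the split of reads among them is uncertain.

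Slurp1, a secreted Ly6 family protein of squamous epithelium that binds nicotinic receptors, was highest in SAP-24h. Its level was 3.67, 21.2 and 22.4 FPKM there, against 0.34, 0.06 and 0.29 in Sham-24h and 0.87, 0.50 and 0.66 in Con-24h lungs. Emo-24h lungs held 3.89, 9.25 and 10.6 FPKM, and DEX-24h lungs 0.67, 0.12 and 2.83. Every SAP-24h and Emo-24h lung was above every Sham, Con and DEX lung of that time. As descriptions, SAP-24h stood 6.14 above Sham-24h and 4.62 above Con-24h on the log2 scale, DEX-24h was at -3.78 and Emo-24h at -1.10 against SAP-24h.

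The comparison of the drugs could be tested. Emo-24h was above DEX-24h by 2.68 ± 1.03 on the log2 scale (SE, adjusted p = 0.111, edgeR), with no overlap but without a call. At 6 h Slurp1 was near its floor: 0, 0.05 and 0.41 FPKM in SAP-6h, 0.21, 0.29 and 0.11 in DEX-6h, 0.21, 0.07 and 0.07 in Con-6h, and 1.11, 0.40 and 0 in Sham-6h lungs. Emo-6h lungs held 0.63, 0.23 and 9.15 FPKM, and the last of these, with 152 reads, set the group apart. Emo-6h was above SAP-6h by 4.76 ± 1.38 (SE, adjusted p = 0.215, edgeR) and above DEX-6h by 4.0 ± 1.22 (adjusted p = 0.0763, edgeR). Without Emo-6h replicate 3 these were 1.80 and 1.02. Against DEX-6h the call rule was passed without Emo-6h replicate 2, at 4.56 (adjusted p = 0.0370, edgeR), and by DESeq2, at 4.03. From SAP-6h to SAP-24h the description was 7.06, with every lung higher, and 8.90 without SAP-6h replicate 3. It rests on 0, 1 and 4 reads in the SAP-6h lungs. Slurp1 was closest to Wfdc21 (r = 0.873) and Wfdc18 (0.771), both secreted WAP domain proteins, and to Rbbp5 (0.723). The neutrophil sum ran from 1010 to 2966 FPKM in DEX-24h and from 4256 to 6583 in Emo-24h lungs, and its r with Slurp1 over the 30 libraries was 0.438. Its part in the Slurp1 levels was not tested.

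A test of the change of each effect over time found no called member. For SAP against Con, DEX against SAP and Emo against SAP at 24 h minus 6 h, 0 of 8 members were called by edgeR, beside 0%, 0.138% and 1.68% of tested genes. By unadjusted p and the fold rule 2 members passed in each, beside 4.65%, 4.85% and 8.78% of tested genes, and DESeq2 called 0, 1 and 1.

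The remaining comparisons called 0 members: DEX-24h and Emo-24h against Sham-24h (4.15% and 0% of tested genes), Emo-6h against SAP-6h (0.0251%), Sham-6h against Con-6h (0%), and the time comparisons of Sham (0.257%), Con (0.00628%) and SAP (2.42%). DESeq2 also called 0 in all 7. By unadjusted p and the fold rule in edgeR, 1 member passed in Emo-6h against SAP-6h, beside 2.85% of tested genes, and 1 in each of the time comparisons of Sham, Con and SAP, beside 3.26%, 3.4% and 6.72%. None passed in DEX-24h or Emo-24h against Sham-24h or in Sham-6h against Con-6h, beside 7.63%, 1.3% and 1.79%.

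Of the comparisons with 0 calls described above, 1 member passed by unadjusted p in SAP-6h against Sham-6h (3.91% of tested genes) and against Con-6h (2.65%), 0 in DEX-6h against SAP-6h (2.97%), and 2 in Emo-6h against Sham-6h (3.35%), in Emo-6h against DEX-6h (5.23%) and in Emo-24h against DEX-24h (8.32%). DESeq2 called 1 member in both SAP-6h comparisons and in both comparisons of Emo with DEX, and 0 in the other two.

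Of 36 other genes with a Krt symbol, a list without Kb23, 15 had enough reads to be tested. In SAP-24h against Con-24h, 2 were called higher (Krt16 and Krt86) and 1 lower (Krt76), beside 6.91% of all tested genes, with a median log2 change of -0.16 over the 15 and -0.0085 over all genes. Krt76, an oral mucosa keratin, went from 5.99 ± 4.47 FPKM in Con-24h to 0.573 ± 0.22 in SAP-24h (SD, n = 3), at -3.27 ± 0.58 on the log2 scale (SE, adjusted p = 0.000914, edgeR), and was called higher in Emo-24h than SAP-24h, at 3.11 ± 0.58 (adjusted p = 0.00463, edgeR). Krt16, known from wounded epidermis, stayed low, from 0.14 to 1.04 FPKM in SAP-24h and from 0.05 to 0.11 in Con-24h (adjusted p = 0.0497, edgeR). In DEX-24h against SAP-24h only Krt1 of the 15 was called, lower at -1.71 ± 0.47 (SE, adjusted p = 0.0271, edgeR), beside 3.73% of tested genes, and 0 were called without any 1 of the DEX-24h libraries or without SAP-24h replicate 1. In SAP-24h against Con-24h 1 was called without Con-24h replicate 2. When the compared groups were fitted alone, 0 of the 15 were called in any of these 3 comparisons. In DEX-24h against Sham-24h 4 of the 15 were called, beside 4.15% of tested genes, with Krt23 and Krt80 higher and Krt1 and Krt76 lower. Without DEX-24h replicate 3 that count was 0, without either of Sham-24h replicates 1 and 2 it was 1, and it was 2 without DEX-24h replicate 1 and with the compared groups alone. From DEX-6h to DEX-24h 4 were called lower (Krt1, Krt2, Krt79 and Krt86), beside 7.14% of tested genes.

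**Figure D4:**
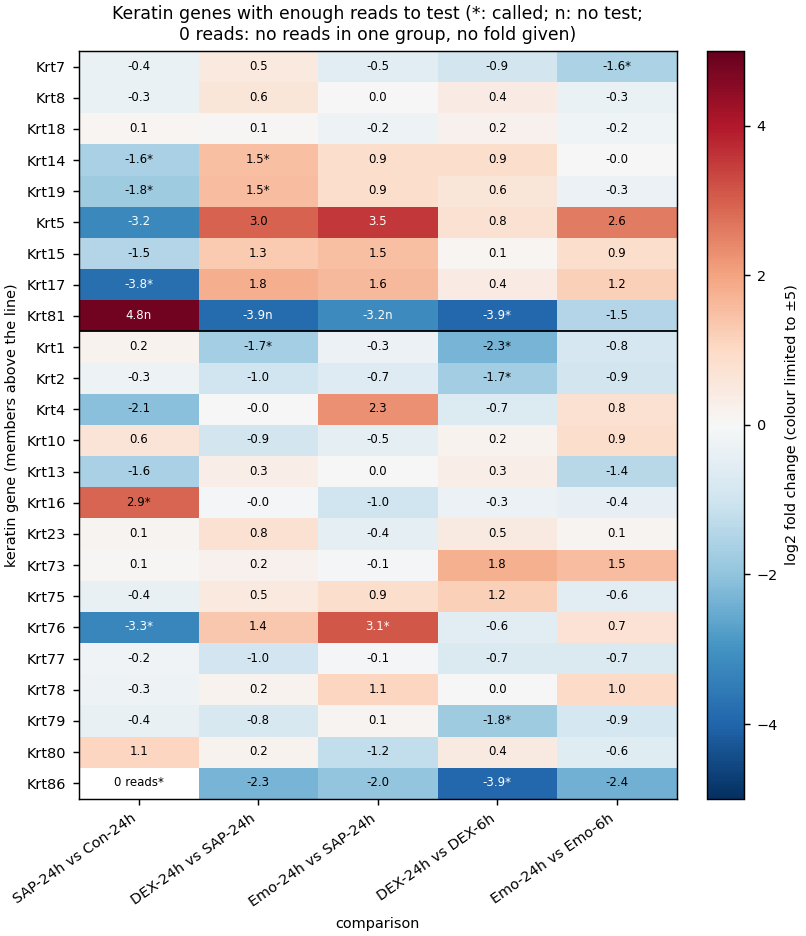
Log2 fold changes (numbers and colour, limited to ±5) of the 9 member keratins and the 15 other keratins with enough reads, in 5 comparisons; * marks a call, n a value not tested, and no fold is given where a group had 0 reads. Krt76 moved from -3.27 in SAP-24h vs Con-24h to 3.11 in Emo-24h vs SAP-24h, and Krt81 and Krt86 were both called lower in DEX-24h than DEX-6h.

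Among genes of cornified and squamous epithelium, 26 of 33 listed were matched and 18 tested. This list and the desmosome and repair state lists below were chosen with earlier results of these data known. Their counts beside all genes are therefore descriptions. In SAP-24h against Con-24h 2 were called higher and 0 lower, beside 3.65% and 3.26% of all tested genes, with a median of 0.11 on the log2 scale. With the compared groups fitted alone, 0 were called, and 1 was called without Con-24h replicate 2 or SAP-24h replicate 1. These were Tgm1, the transglutaminase that cross-links the cornified envelope, at 1.15 ± 0.29 (SE, adjusted p = 0.00791), and Sbsn, the epidermal protein suprabasin, at 1.56 ± 0.50 (adjusted p = 0.0288) by edgeR. Tgm1 went from 6.91 ± 1.22 FPKM in Con-24h to 14.0 ± 3.42 in SAP-24h (SD, n = 3), and was called lower in DEX-24h, at 5.85 ± 0.31 FPKM, and in Emo-24h, at 7.03 ± 1.17. The neutrophil sum was likewise above Con-24h and DEX-24h in every SAP-24h lung, and its part in the Tgm1 levels was not tested. Tgm1 was the only gene of the list called in either drug comparison at 24 h, beside 3.73% of tested genes for DEX and 3.19% for Emo, and the Emo call was lost with the compared groups fitted alone and without Emo-24h replicate 1 or 2 or SAP-24h replicate 1. The sum of the 5 matched of 9 squamous markers was 2.05 to 2.13 FPKM in SAP-24h and 1.78 to 3.03 in Con-24h lungs. In DEX-24h lungs it was 1.10 to 1.32 FPKM, below every lung of the other 9 groups, where the lowest was 1.76. The 5 markers did not all fall: their median log2 change in DEX-24h against SAP-24h was -0.033, and only Krt1 was called, lower.

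At 6 h a different gene of the cornified list was called. Ly6g6c, of the Ly6 family like Slurp1, was higher in SAP-6h than in Sham-6h, at 1.42 ± 0.31 on the log2 scale (SE, adjusted p = 0.0483, edgeR), beside 0.22% of tested genes. Against Con-6h, where the lungs overlapped, it was not called, at 0.68 ± 0.30 (SE, adjusted p = 0.439, edgeR). It was lower in Emo-6h than in SAP-6h, at -1.78 ± 0.32 (SE, adjusted p = 0.0361, edgeR), beside 0.0251% of tested genes. Its means were 1.80 ± 0.16 FPKM in Sham-6h, 4.72 ± 1.47 in SAP-6h and 1.37 ± 0.39 in Emo-6h lungs (SD, n = 3), and SAP-6h did not overlap Sham-6h or Emo-6h. Both calls were lost without the low-count filter and with the compared groups fitted alone. The first was also lost with a replicate block and without any 1 library besides SAP-6h replicate 1, and the second without Emo-6h replicate 1 or 3 or SAP-6h replicate 2 or 3.

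Desmosome and hemidesmosome genes anchor keratin filaments to the membrane. Of 21 tested, 1 was called in SAP-24h against Con-24h, beside 6.91% of all tested genes, with a list median of -0.23 on the log2 scale. This was Jup, the junction protein plakoglobin, lower at -1.01 ± 0.22 (SE, adjusted p = 0.00255, edgeR), a call lost without the low-count filter, without Con-24h replicate 2 and without SAP-24h replicate 1. In DEX-24h and Emo-24h against SAP-24h 0 were called by edgeR, beside 3.73% and 3.19% of tested genes. By unadjusted p and the fold rule 2 passed for DEX and 0 for Emo, beside 7.27% and 7.42% of tested genes, and DESeq2 called 2 and 0.

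Among genes of the alveolar repair state, 3 of 20 tested were called higher in SAP-24h than in Con-24h and 0 lower, beside 3.65% and 3.26% of all tested genes. The list was chosen with earlier results of these data known, so nothing is read from its share. Plaur, the urokinase receptor, was higher at 1.26 ± 0.24 (SE, adjusted p = 0.00128), Myc at 1.45 ± 0.33 (adjusted p = 0.00381) and Fst, an activin inhibitor, at 1.33 ± 0.42 (adjusted p = 0.0261) by edgeR. Myc ran from 17.8 to 65.2 FPKM in SAP-24h and from 12.8 to 15.5 in Con-24h lungs, and without SAP-24h replicate 1 the count was 1. All 6 neutrophil markers were called higher in the same comparison, and their part in these changes was not tested. In DEX-24h against SAP-24h 3 were called higher and 2 lower, beside 3.73% of tested genes. Ctgf, a matricellular growth factor, was higher at 2.03 ± 0.38 (SE, adjusted p = 0.00232), with S100a6 at 1.08 and Fst at 1.45, while Tm4sf1 was lower at -1.38 and Clu at -1.08. The neutrophil sum was also lower in every DEX-24h lung than in every SAP-24h lung, and its part was not tested. In Emo-24h against SAP-24h 3 were called lower and 0 higher, beside 3.19% of tested genes, with Plaur at -1.16 ± 0.24 (SE, adjusted p = 0.00661), Myc at -1.53 ± 0.33 (adjusted p = 0.00838) and Cdkn1a, a cell-cycle inhibitor, at -1.72 ± 0.47 (adjusted p = 0.0262) by edgeR. The list medians were 0.19, 0.52 and -0.20 in these 3 comparisons, beside medians near 0 over all genes. With the compared groups fitted alone, the genes called numbered 1, 3 and 0. Without 1 library the DEX count was 2 (DEX-24h replicate 2) or 3 (DEX-24h replicate 1 or 3), and the Emo count was 1 without Emo-24h replicate 1 or 2 or SAP-24h replicate 1.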

How the data were processed

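Lung RNA of 30 rats was sequenced as strand-specific, polyadenylated libraries. Per the study's methods the authors aligned the read pairs to rat_ensembl_v6 in TopHat2 with up to 2 mismatches and discarded reads with several matches. The counting program is not given in the sources used here. The authors deposited counts of reads for 22914 genes and FPKM values for 22907. Counts were tested with edgeR 4.0.16 under R 4.3.3. The filter of low genes, filterByExpr at a minimum count of 10 and a total of 15, kept 15934 genes, and after TMM scaling a quasi-likelihood model of 10 groups gave 20 residual degrees of freedom. Benjamini-Hochberg adjustment ran over all tested genes in each of 21 comparisons and 4 interactions. Calls needed 2-fold changes with adjusted p below 0.05. FPKM gave levels. Correlations used log2 CPM with a prior count of 2, or log2(FPKM + 0.1) for marker sums, over 30 libraries. Rows without a gene ID (2) were left out.

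The 10 genes and all lists were chosen with earlier results of these data known. Genes outside them were named if they were called list members, the 3 most like a member or defining cell type markers. Kb23, Krt83 and the levels of Krt80, Krt79 and Krt23 were added after their values were seen. Replicates were separate rats. On simulated data for DEX-24h against SAP-24h (15763 genes), 161 of 200 changed genes and 4 unchanged ones were called. Alternatives were RLE scaling, DESeq2 1.42.0, no filter, a replicate block, the compared groups alone, an unadjusted p and each library left out. Low genes such as Krt5, Krt86 and Slurp1 rest on few reads.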

Additional observations from a re-analysis of the deposited data

Results flagged for a closer look

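The effect of emodin differed between the time points for 3 of the 74 genes tested in 4 lists (other keratins, cornified, desmosome and repair state genes), by edgeR's interaction test adjusted over all genes, where 1.68% of all tested genes were called. These genes are not members of the set, and the interaction was examined for the lists after the data were seen. Ly6g6c changed by 2.44 ± 0.44 on the log2 scale (SE, adjusted p = 0.0135) for Emo against SAP at 24 h minus 6 h, from -1.78 at 6 h to 0.67 at 24 h (adjusted p = 0.171 at 24 h). Plaur changed by -1.51 ± 0.34 (SE, adjusted p = 0.0251, edgeR), from 0.35 to -1.16. Myc changed by -1.69 ± 0.46 (SE, adjusted p = 0.0448, edgeR), from 0.16 to -1.53.

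All 3 calls were lost when the compared groups were fitted alone, at adjusted p of 0.106, 0.127 and 0.168 for Ly6g6c, Plaur and Myc, and that of Myc also with a replicate block (adjusted p = 0.0584, edgeR). With each of 12 libraries left out in turn, the call was lost in 2 fits for Ly6g6c, 5 for Plaur and 7 for Myc. Myc was at -0.75 without SAP-24h replicate 1. The cause was not tested.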

How the results depend on the processing

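RLE scaling changed no count of calls beyond 1.5 times and moved no median over all genes by more than 0.1 on the log2 scale. Without the low-count filter SAP-6h vs Con-6h called 1 member in place of 0 and SAP-24h vs Con-24h called 0 desmosome genes in place of 1, and 0 cornified genes were called in SAP-6h vs Sham-6h and Emo-6h vs SAP-6h. Only 1 of 21 comparisons had every same-number correlation over 0.1 (lowest -0.363), so the replicate numbers were not treated as pairs. That comparison was DEX-24h vs DEX-6h, at 0.212, 0.221 and 0.23. With 3 rats per group these correlations cannot exclude a batch shared by rats of the same number. With a replicate block Emo-24h vs DEX-24h called 1 member, Emo-24h vs SAP-24h 2 other keratins, DEX-24h vs SAP-24h 2 cornified genes and SAP-6h vs Sham-6h 0, and no other count moved beyond 1.5 times.

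With the compared groups fitted alone, 0 members were called in DEX-24h vs SAP-24h and in Sham-24h vs Con-24h, 0 other keratins in the comparisons of SAP-24h with Con, DEX and Emo (in this order), 2 other keratins in DEX-24h vs Sham-24h, and 0 cornified genes in SAP-24h vs Con-24h, Emo-24h vs SAP-24h, SAP-6h vs Sham-6h and Emo-6h vs SAP-6h. Repair state genes were then 1, 3 and 0 for the comparisons of SAP-24h with Con, DEX and Emo (in this order). Those fits have fewer samples. The alternatives for the lists were chosen after seeing the data.

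DESeq2 called 1 member in SAP-6h vs Sham-6h, SAP-6h vs Con-6h, Emo-6h vs DEX-6h, Emo-24h vs DEX-24h and the interactions of DEX vs SAP and Emo vs SAP with time. It called 5 other keratins in SAP-24h vs Con-24h and 3 in Emo-24h vs SAP-24h, 2 cornified genes in DEX-24h vs SAP-24h and in Emo-24h vs SAP-24h, and 2 desmosome genes in SAP-24h vs Con-24h and in DEX-24h vs SAP-24h. The cause of these differences was not tested.

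By unadjusted p and a 2-fold change, 1 member passed in SAP-6h vs Sham-6h, SAP-6h vs Con-6h, Emo-6h vs SAP-6h, Emo-24h vs SAP-24h, and the time comparisons of Sham, Con and SAP, and 2 in Emo-6h vs DEX-6h, Emo-24h vs DEX-24h, Emo-6h vs Sham-6h and the 3 interactions with time. Other keratins then numbered 6, 3 and 4, and cornified genes 4, 2 and 4, in the comparisons of SAP-24h with Con, DEX and Emo (in this order). Desmosome genes numbered 3 and 2 in the first and second of these, and other keratins 7 in DEX-24h vs Sham-24h.

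With each library left out in turn, the members called ranged from 0 to 1 in SAP-6h vs Con-6h, Emo-6h vs DEX-6h, Emo-24h vs DEX-24h, Sham-24h vs Con-24h and the interaction of Emo vs SAP with time, and from 1 to 2 in DEX-24h vs SAP-24h and the 2 time comparisons of the drugs, DEX and Emo. In the comparisons of SAP-24h with Con, DEX and Emo (in this order), other keratins ranged from 1 to 5, 0 to 2 and 1 to 3, cornified genes from 1 to 4, 1 to 3 and 0 to 2, and repair state genes from 1 to 3, 2 to 5 and 1 to 3. Desmosome genes ranged from 0 to 2 in the first and second of these, other keratins from 0 to 4 in DEX-24h vs Sham-24h, and cornified genes from 0 to 1 in SAP-6h vs Sham-6h and in Emo-6h vs SAP-6h. Of the single folds, only Krt7 in Con-24h vs Con-6h changed sign, at 0.14 without Con-24h replicate 1, with a range from -0.30 to 0.14. The planned count for SAP vs Sham at 24 h minus 6 h is not given, since it contains the contrast on which Slurp1 and Krt81 were picked.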
